A study of Mus musculus with 75 samples.

Results

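The genes described here encode the enzymes that hydroxylate collagen in the endoplasmic reticulum and a non-catalytic relative, namely *P4ha1*, *P4ha2* and *P4ha3* (prolyl 4-hydroxylases), *Plod1*, *Plod2* and *Plod3* (lysyl hydroxylases) and *P3h1*, *P3h2*, *P3h3* and *P3h4* (the prolyl 3-hydroxylase family, in which the *P3h4* product lacks hydroxylase activity). They were chosen by symbol, as the rows of the count table that carry these 10 names, among 55536 genes in all, and all 10 were among the 16221 genes that passed the filter on low counts. Polyadenylated RNA from the inferior lung lobe was sequenced in 75 male C57BL/6JRj mice, 1 library per mouse. All mice, controls included, are listed as 12 to 14 weeks old, the age at which BLEO-IPF mice received bleomycin. They were given a single intratracheal dose of bleomycin sulphate (1.5 mg/kg), a chemotherapy drug that damages alveolar epithelial cells. Only BLEO-IPF mice with a weight loss of 5 to 17% on day 6 had been randomised. Lungs were taken from 10 control mice (CTRL), from 10 BLEO-IPF mice on day 7, from 12 each on day 14, day 21, day 28 and day 35, and from 7 on day 42. The day on which CTRL lungs were taken is not given in the labels or the methods text. The sample labels and the figure legends describe CTRL as given saline, whereas the methods text describes them as untreated. No mouse carried a genetic modification according to the labels.

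Newly made collagen chains are modified before they fold. Prolyl 4-hydroxylases are tetramers of a catalytic α-subunit, the product of *P4ha1*, *P4ha2* or *P4ha3*, with the protein disulfide isomerase encoded by *P4hb*, and the 4-hydroxyproline they form stabilises the collagen triple helix. Lysyl hydroxylases prepare lysines for sugar attachment and for the cross-links between collagen molecules, and lysines hydroxylated in the telopeptides by the *Plod2* product give rise to the stable pyridinoline cross-links that accumulate in fibrotic tissue. Prolyl 3-hydroxylation is a rare modification, made in fibrillar collagen by the *P3h1* product in a complex with the products of *Crtap* and *Ppib*. These enzymes need iron, 2-oxoglutarate and ascorbate.

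Levels are given as CPM, the count of a gene relative to its library's total scaled with a TMM factor, with SDs between mice. Changes are log2 fold changes (log2FC) from edgeR's quasi-likelihood F test with 1 mean per group over all 75 mice, with SEs of the fit. A gene was called differentially expressed where its p, adjusted by Benjamini-Hochberg over all 16221 genes, was under 0.05. Nothing in the labels says that 2 libraries came from the same mouse, so the spread is taken as that between animals. Total counts ranged from 9240291 to 14665247 per library, with a median of 10677163. In whole lung RNA, a change in the number of cells of a type cannot be told apart from a change in RNA per cell.

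On day 14, all 10 hydroxylase genes were differentially expressed compared to CTRL, 8 upregulated and 2 downregulated. Of all genes tested, 32.4% were upregulated and 29.9% downregulated on that day. The median log2FC was 0.41 over the 10 genes and 0.01 over all genes tested. In 4 of the genes (*P4ha3*, *Plod1*, *P3h1* and *P3h3*) every day 14 mouse lay above every CTRL mouse, and in *P3h2* every mouse lay below. Over all genes tested, 9.46% were separated in the upward and 6.15% in the downward direction. The 5 others overlapped with CTRL. With an absolute log2FC of at least 0.5 also required, 4 of the 10 genes were called on day 14 (*P4ha3*, *Plod1*, *P3h1* and *P3h2*), where 31% of all genes tested were. By size of log2FC on day 14, *P4ha3* ranked 88th and *P3h1* 1031st from the top of the 16221 genes, and *P3h2* ranked 14609th.

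**Figure D1:**
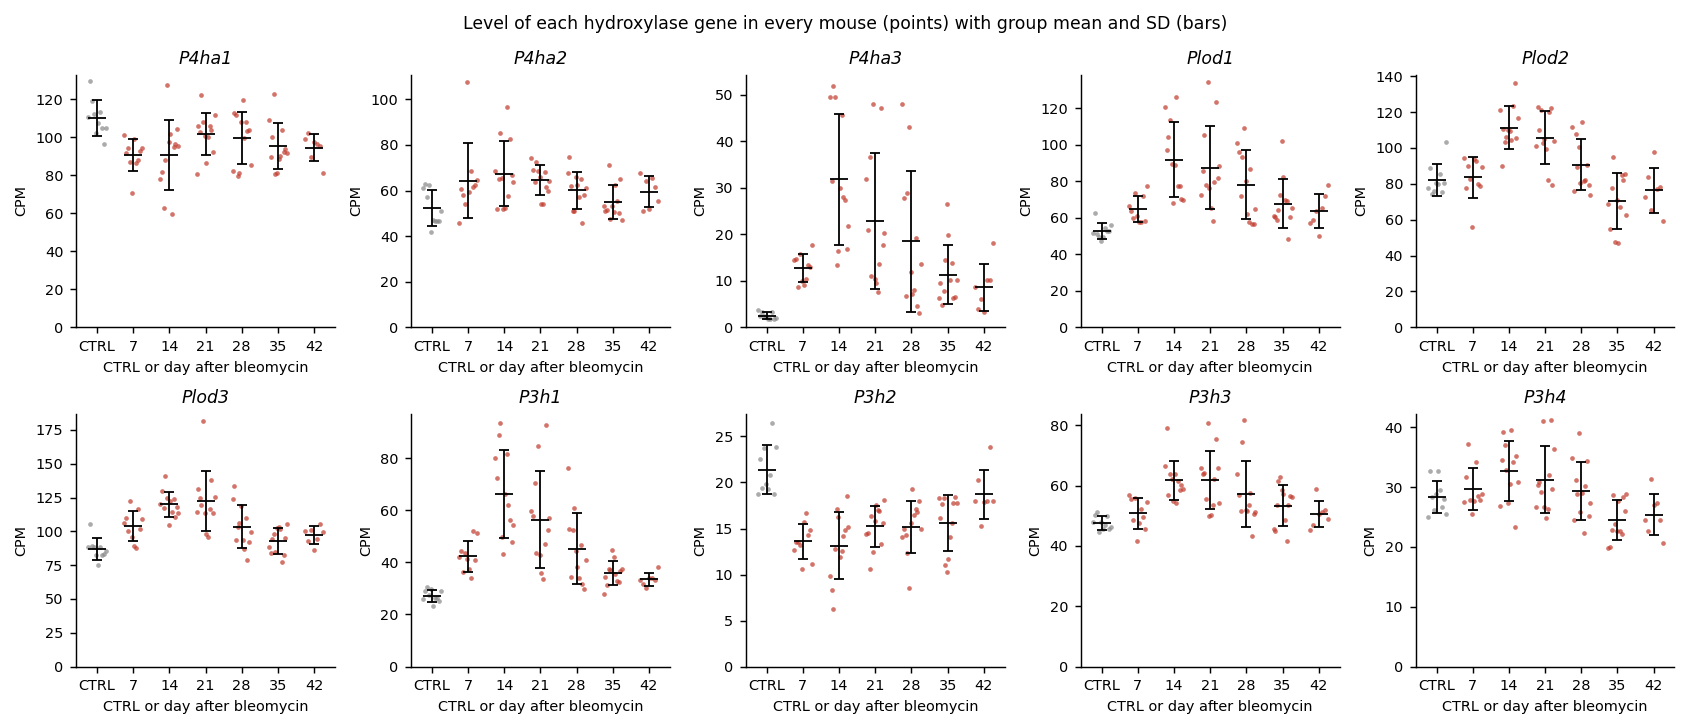
Level of each of the 10 hydroxylase genes in every mouse, in CPM on linear axes from 0, for CTRL (grey) and for days 7 to 42 after bleomycin (red). Bars give the group mean and SD, with 7 to 12 mice per group, and *P4ha3* rises from 1.78 to 3.68 CPM in CTRL to 13.4 to 51.8 CPM on day 14 whereas *P3h2* falls.

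Among the prolyl 4-hydroxylases, the 3 α-subunit genes moved in different directions. They lie on separate chromosomes of GRCm38, *P4ha1* (ENSMUSG00000019916) at chr10:59323296-59373304, *P4ha2* (ENSMUSG00000018906) at chr11:54100095-54131665 and *P4ha3* (ENSMUSG00000051048) at chr7:100285520-100319699, all on the plus strand. The 250 bases before the RefSeq start of each are shown so that the promoters of these differently moving genes can be compared. Capitals mark ACGTG or its reverse complement CACGT, a form of the core of the hypoxia response element, searched on both strands. The form GCGTG was not searched or marked. The windows are chr10:59323046-59323295, chr11:54100674-54100923 and chr7:100285270-100285519 of GRCm38.p6, plus strand, from RefSeq. The *P4ha2* window lies inside the gene span given above, because the RefSeq start used, 54100924, is downstream of the start of that span. The *P4ha1* and *P4ha3* windows end just before theirs.
P4ha1: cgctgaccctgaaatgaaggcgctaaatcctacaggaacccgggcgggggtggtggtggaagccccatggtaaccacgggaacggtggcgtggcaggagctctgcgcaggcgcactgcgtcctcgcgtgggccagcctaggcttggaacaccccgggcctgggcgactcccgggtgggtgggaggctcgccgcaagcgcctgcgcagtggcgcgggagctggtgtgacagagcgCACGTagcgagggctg
P4ha2: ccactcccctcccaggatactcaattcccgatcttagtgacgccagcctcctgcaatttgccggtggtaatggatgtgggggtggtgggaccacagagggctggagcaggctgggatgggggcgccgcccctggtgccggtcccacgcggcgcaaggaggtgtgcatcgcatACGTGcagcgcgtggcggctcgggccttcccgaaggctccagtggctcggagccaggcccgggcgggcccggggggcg
P4ha3: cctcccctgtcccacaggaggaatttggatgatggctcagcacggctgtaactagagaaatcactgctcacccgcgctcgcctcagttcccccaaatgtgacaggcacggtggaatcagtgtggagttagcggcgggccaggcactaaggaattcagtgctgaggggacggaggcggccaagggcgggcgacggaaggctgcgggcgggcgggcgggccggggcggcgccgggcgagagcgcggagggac
The *P4ha1* and *P4ha2* windows each hold the marked letters once and the *P4ha3* window does not hold them. GC content is close among the windows at 69.6%, 70% and 67.2%. Of the 32851 promoter windows in the table, 16.6% hold the letters, as do 4 of the 8 windows found for 7 of the hydroxylase genes.

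*P4ha3*, the α-subunit gene with the lowest level per exon length in CTRL, was the hydroxylase gene with the largest log2FC on day 14. In CTRL mice its level was 1.78 CPM in the lowest, 2.25 in the median and 3.68 in the highest mouse, from 18 to 41 counts. On day 14 these values were 13.4, 28.9 and 51.8 CPM. Every day 14 mouse therefore exceeded every CTRL mouse, and the highest day 14 mouse had 3.87 times the level of the lowest, with a coefficient of variation of 44.1%. The log2FC was 3.68 ± 0.40 (SE), a 12.8-fold increase (adjusted p = 2.42e-12). *P4ha3* was upregulated on all 6 days, with a log2FC of 2.36 ± 0.40 on day 7 and, from the third to the fifth week, of 3.20 ± 0.39, 2.90 ± 0.39 and 2.19 ± 0.39. On day 42 the 7 mice ranged from 3.17 to 18.1 CPM around a median of 8.69, and 6 of them lay above all CTRL mice (log2FC 1.79 ± 0.44, adjusted p = 0.00155). It was the only hydroxylase gene called on that day. The widest scatter was on day 28, when the mice ranged from 2.99 to 47.9 CPM and 1 of the 12 lay within the CTRL range.

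*P4ha1*, which encodes the most abundant α-subunit in most tissues, had a lower mean in every BLEO-IPF group than in CTRL, by a margin that passed the test on 3 of the 6 days. It measured 96.4, 109 and 129.5 CPM in the lowest, median and highest CTRL mouse and 59.4, 95.1 and 128 CPM on day 14. The groups overlapped, with 8 of the 12 day 14 mice below the CTRL range. The log2FC was -0.28 ± 0.08 on day 7 and on day 14 (adjusted p = 0.00469 and 0.00199) and -0.21 ± 0.08 on day 35 (adjusted p = 0.0425). The day 35 call was lost under 6 of the 8 alternative settings and in 12 of the 75 refits without 1 mouse, and the directions on days 21, 28 and 42 were also negative without passing the test.

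*P4ha2*, encoding the α-subunit that is also prominent in cartilage and bone, moved the other way but by little. It rose from a median of 49 CPM (41.7 to 63) in CTRL to 65.3 CPM (51.7 to 96.6) on day 14, with 8 of 12 mice above the CTRL range and a log2FC of 0.36 ± 0.10 (adjusted p = 0.000945). It was also called on days 7 and 21, at 0.30 ± 0.10 and 0.31 ± 0.10, but not on later days. The day 7 call rested on 1 mouse, replicate 5, at 108 CPM against at most 68.4 CPM in the other mice of that day. Without it the log2FC was 0.19 and the adjusted p 0.0920. That library had the highest sum of the transitional epithelium markers on day 7, 1555 CPM against 883 to 1325 in the others, and the lowest sum of the monocyte-derived macrophage markers, 444 CPM against 523 to 1032. Its sum of the endothelial markers was also the lowest, 3574 CPM against 3627 to 4316. So was that of the lymphocyte and plasma cell markers, 44.955 CPM against 49.53 to 115.95. The part of these cells in the *P4ha2* value was not tested. On day 28, *P4ha2* was called only without replicate 10 (log2FC 0.23, adjusted p = 0.0444), the library with the highest sum of cardiac and skeletal muscle markers of that day, 3143 CPM against at most 692 in the others. It also had the lowest sum of the transitional epithelium markers, 457 CPM against 585 to 1066, and the highest of red blood cell markers, 2241 CPM against 730.0 to 1538. Their part in its *P4ha2* value was not tested either.

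Per exon length, the make-up of the family shifted. *P4ha1* held 74.6 ± 2.1% of the family's CPM per kb in CTRL, *P4ha2* 23.3 ± 1.9% and *P4ha3* 2.18 ± 0.58%. On day 14 the shares were 51.6 ± 11.2%, 25 ± 4.0% and 23.4 ± 9.5%, and the share of *P4ha3* ranged from 9.31 to 39.2% among mice. On day 42 the share of *P4ha3* was 7.73 ± 4.62%. The summed level of the family per length was 35.9 ± 3.4 CPM per kb in CTRL, 43 ± 3.8 on day 14 and 35.3 ± 1.8 on day 42. Exon length was the union of the annotated exons of a gene, so these levels do not account for which transcript a mouse uses.

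The log2 ratio of *P4ha3* to *P4ha1* within each mouse rose by 3.80 on day 14 and by 1.78 on day 42 (permutation tests over mice, adjusted p = 5.33e-05 and 0.000387). All 12 day 14 mice and 6 of 7 day 42 mice lay above the CTRL range of this ratio. *P4hb*, the shared β-subunit, rose by 0.51 ± 0.07 on day 14, so the log2 ratio of *P4ha1* to *P4hb* fell from -2.40 ± 0.10 in CTRL to -3.20 ± 0.43 on day 14, with all 12 mice below the CTRL range (adjusted p = 5.33e-05). It was still below the CTRL range in all 7 mice on day 42, at -2.82 ± 0.19 (exact permutation test, adjusted p = 0.000235). In total, 16 ratios were tested on these 2 days, and 30 of the 32 tests passed after adjustment over all of them.

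**Figure D2:**
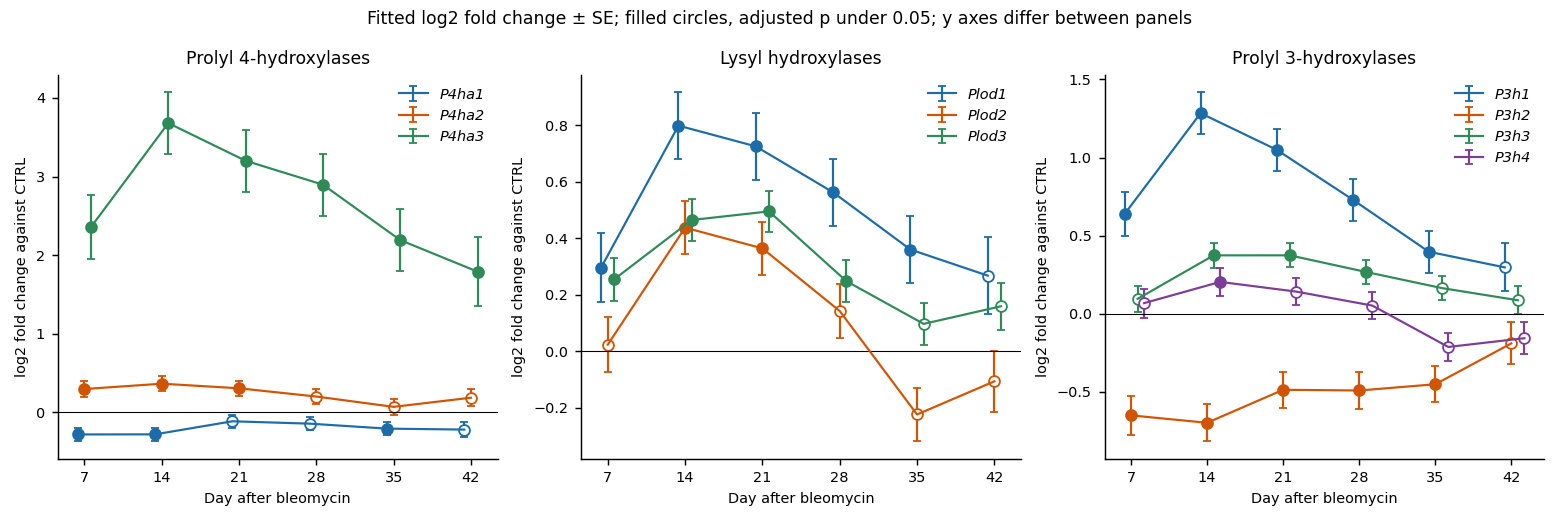
Fitted log2 fold change against CTRL with SE for each hydroxylase gene, weekly from day 7 to day 42, in 1 panel per family with its own y axis. Filled circles have an adjusted p under 0.05, and the 6 contrasts share the 10 CTRL mice. *P4ha3* stays filled through day 42, whereas all other genes are open on that day.

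The lysyl hydroxylase genes rose in all 3 cases on day 14. *Plod1* (ENSMUSG00000019055, chr4:147909753-147936767, minus strand) encodes the enzyme for lysines of the triple helix, *Plod2* (ENSMUSG00000032374, chr9:92542223-92608428, plus strand) the enzyme for telopeptide lysines, and *Plod3* (ENSMUSG00000004846, chr5:136987019-136996648, plus strand) an enzyme that also attaches sugars to hydroxylysine. *Plod1* measured 47.3, 52.4 and 62.9 CPM in the lowest, median and highest CTRL mouse and 68.3, 89.1 and 126 CPM on day 14. The groups did not overlap, and the log2FC was 0.80 ± 0.12 (adjusted p = 3.46e-08). *Plod1* remained upregulated on days 21, 28 and 35, at 0.73 ± 0.12, 0.56 ± 0.12 and 0.36 ± 0.12, with 11, 8 and 7 of 12 mice above the CTRL range. Its day 7 call (0.30 ± 0.12, adjusted p = 0.0427) was lost under 4 of the 8 alternative settings. It was also lost in 17 of the 75 refits without 1 mouse, some of them without a mouse of day 42.

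*Plod2* rose for a shorter time. Its level was 74.2, 80.2 and 103 CPM in the lowest, median and highest CTRL mouse and 89.7, 110.0 and 136 CPM on day 14, when 10 of 12 mice lay above the CTRL range (log2FC 0.44 ± 0.09, adjusted p = 5.3e-05). It was called again on day 21 (0.36 ± 0.09) but on no other day. On day 35 the 12 mice ranged from 47 to 95.1 CPM, with 7 of them below all CTRL mice, and the log2FC of -0.22 ± 0.09 did not pass the test (adjusted p = 0.0624). Leaving out any of 7 mice in turn brought this below the threshold, among them day 42 replicates 4 and 7, which are not in this comparison.

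*Plod3* was upregulated on days 7, 14, 21 and 28. It measured 75.3, 86.9 and 106 CPM in the lowest, median and highest CTRL mouse and 105, 119 and 141 CPM on day 14, with 11 of 12 mice above the CTRL range. In the order of these days, the log2FC was 0.26 ± 0.08, 0.46 ± 0.07, 0.50 ± 0.07 and 0.25 ± 0.07. Exons of *Plod3* share 529 bases with *Znhit1* on the opposite strand, which had 23.7% as many counts, and *Plod2* shares 346 bases with *Gm38391*, which had 1.98% as many. The sources used here do not state how strand was counted, so *Plod3* values carry that uncertainty.

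Per exon length, *Plod3* held the largest share of this family in CTRL, 45.5 ± 2.3%, followed by *Plod2* with 36 ± 2.5% and *Plod1* with 18.5 ± 0.6%. The shares moved less than those of the prolyl 4-hydroxylases, to 43.7 ± 2.8%, 34.1 ± 4.0% and 22.2 ± 3.8% on day 14. The family's summed level per length was 42.3 ± 3.2 CPM per kb in CTRL and 60.8 ± 4.0 on day 14. The log2 ratio of *Plod2* to *Plod1* fell by 0.33 on day 14 and by 0.37 on day 42 (permutation tests, adjusted p = 0.0197 for both). The ratio of *Plod2* to *Plod3* differed from CTRL by -0.03 on day 14 (adjusted p = 0.750) and by -0.28 on day 42 (exact permutation test, adjusted p = 0.0352). *Fkbp10*, a chaperone that assists the *Plod2* product, rose by 1.5 ± 0.17 on day 14, and the log2 ratio of *Plod2* to *Fkbp10* fell from 1.17 ± 0.22 in CTRL to 0.16 ± 0.49, with all 12 mice below the CTRL range.

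**Figure D3:**
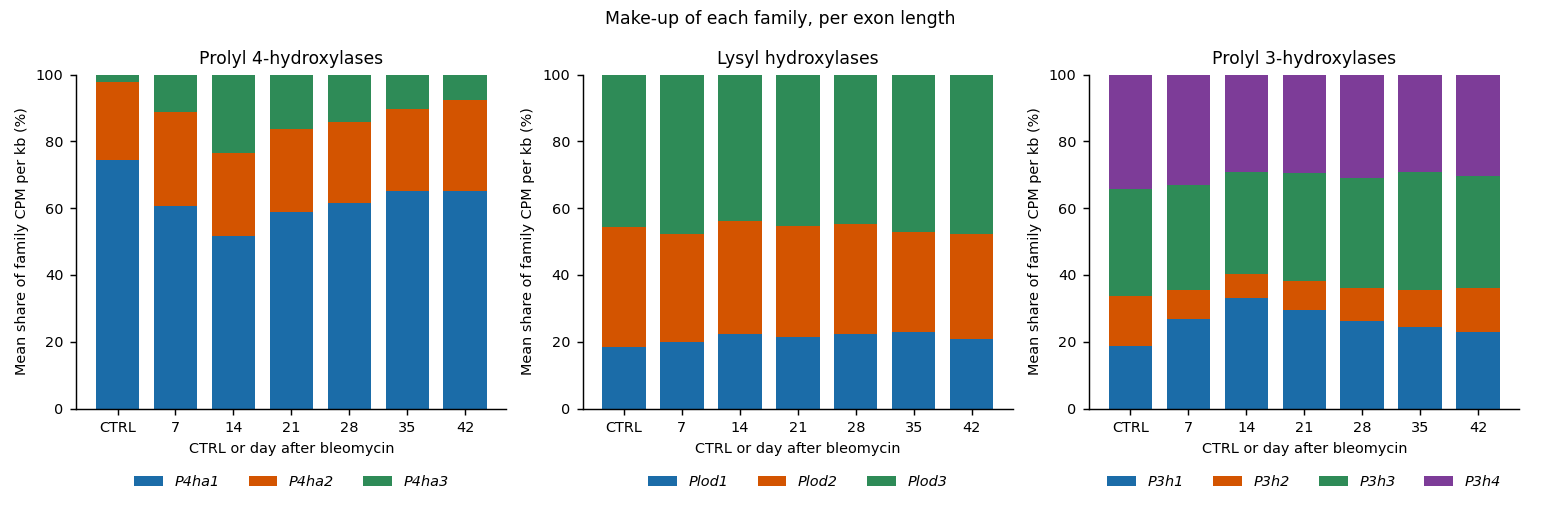
Mean share (%) of each gene in the summed CPM per kb of exon of its family, in CTRL and on days 7 to 42 after bleomycin, stacked to 100% with no error bars. The share of *P4ha3* grows from 2.18% in CTRL to 23.4% on day 14, and that of *P3h2* shrinks from 15.1 to 7.07%.

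Of the prolyl 3-hydroxylase family, *P3h1* (ENSMUSG00000028641, chr4:119232915-119248975, plus strand) rose most. Its level was 23.1, 26.8 and 30.4 CPM in the lowest, median and highest CTRL mouse and 43.3, 64 and 93.6 CPM on day 14. All day 14 mice exceeded all CTRL mice, with a log2FC of 1.28 ± 0.14 or 2.44-fold (adjusted p = 1.38e-12). On day 7 all 10 mice were already above the CTRL range (0.64 ± 0.14), and *P3h1* was also called on days 21, 28 and 35, at 1.05 ± 0.14, 0.73 ± 0.14 and 0.40 ± 0.14. On day 42 *P3h1* ranged from 30.1 to 38.4 CPM, with 6 of 7 mice above the CTRL range, although its log2FC of 0.30 ± 0.15 did not pass (adjusted p = 0.151). A fit of only the day 42 and CTRL mice called it (adjusted p = 0.000454), as it did *P4ha1*, *Plod1* and *Plod3* beside *P4ha3*, giving 5 calls of 10 on that day rather than 1. Among all genes tested that fit called 39.8%.

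*P3h2* (ENSMUSG00000038168, chr16:25959288-26105784, minus strand), whose product acts on collagen IV of basement membranes, changed in the opposite direction. It measured 18.8, 20.4 and 26.5 CPM in the lowest, median and highest CTRL mouse, and 6.29, 13.4 and 18.5 CPM on day 14. All 12 day 14 mice lay below all CTRL mice (log2FC -0.70 ± 0.12, adjusted p = 5.15e-07). Downregulation was called at every time point through day 35, the log2FC being -0.65 (day 7), -0.49 (days 21 and 28) and -0.45 (day 35). Separation from CTRL was complete on days 7, 14, 21 and 35, and 11 of 12 mice were below the CTRL range on day 28. On day 42 the range was 15.3 to 23.8 CPM, and the log2FC of -0.19 ± 0.13 did not pass the test. Of the 6 chains of collagen IV, named after values of some had been seen, 5 rose on day 14, from *Col4a1* at 1.61 ± 0.16 and *Col4a2* at 1.37 ± 0.15 to *Col4a3* at 0.37 ± 0.14, and *Col4a6* fell (log2FC -0.66 ± 0.16).

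*P3h3* (ENSMUSG00000023191, chr6:124841089-124857752, minus strand) and *P3h4* (ENSMUSG00000006931, chr11:100408456-100414836, minus strand) encode proteins that associate with the *Plod1* product. *P3h3* measured 44.6, 47.4 and 51.3 CPM in the lowest, median and highest CTRL mouse and 54.2, 61 and 79.0 CPM on day 14, without overlap (log2FC 0.37 ± 0.08, adjusted p = 3.09e-05). It was also called on days 21 and 28, at 0.37 ± 0.08 and 0.27 ± 0.08. *P3h4* ranged from 25 to 32.7 CPM in CTRL and from 23.4 to 39.5 CPM on day 14, and its change was the smallest among the 10 genes (0.20 ± 0.09, adjusted p = 0.0394). The call was lost under 7 of the 8 alternative settings and in 37 of the 75 refits without 1 mouse, many of them without a mouse of another day. On day 35 the direction was negative (-0.21 ± 0.09, adjusted p = 0.0594), and 7 of 12 mice were below the CTRL range.

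Per exon length, *P3h4* and *P3h3* held 34.3 ± 2.6% and 31.9 ± 1.2% of this family in CTRL, *P3h1* 18.7 ± 1.4% and *P3h2* 15.1 ± 1.8%. On day 14 *P3h1* had the largest mean share at 33.1 ± 5.4%, and *P3h2* had fallen to 7.07 ± 2.48%. The log2 ratio of *P3h2* to *P3h1* fell by 1.98 on day 14, with all 12 mice below the CTRL range, and by 0.49 on day 42, with 5 of 7 below it (adjusted p = 5.33e-05 and 0.000914, the latter from an exact permutation test). *Crtap*, which encodes the helper subunit of the 3-hydroxylation complex, rose by 0.66 ± 0.10 on day 14 and *Ppib*, its cyclophilin, by 0.46 ± 0.07. Since *P3h1* rose more, its log2 ratio to *Crtap* went from -0.66 ± 0.15 in CTRL to -0.06 ± 0.16, and all 12 mice exceeded the CTRL range.

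**Figure D4:**
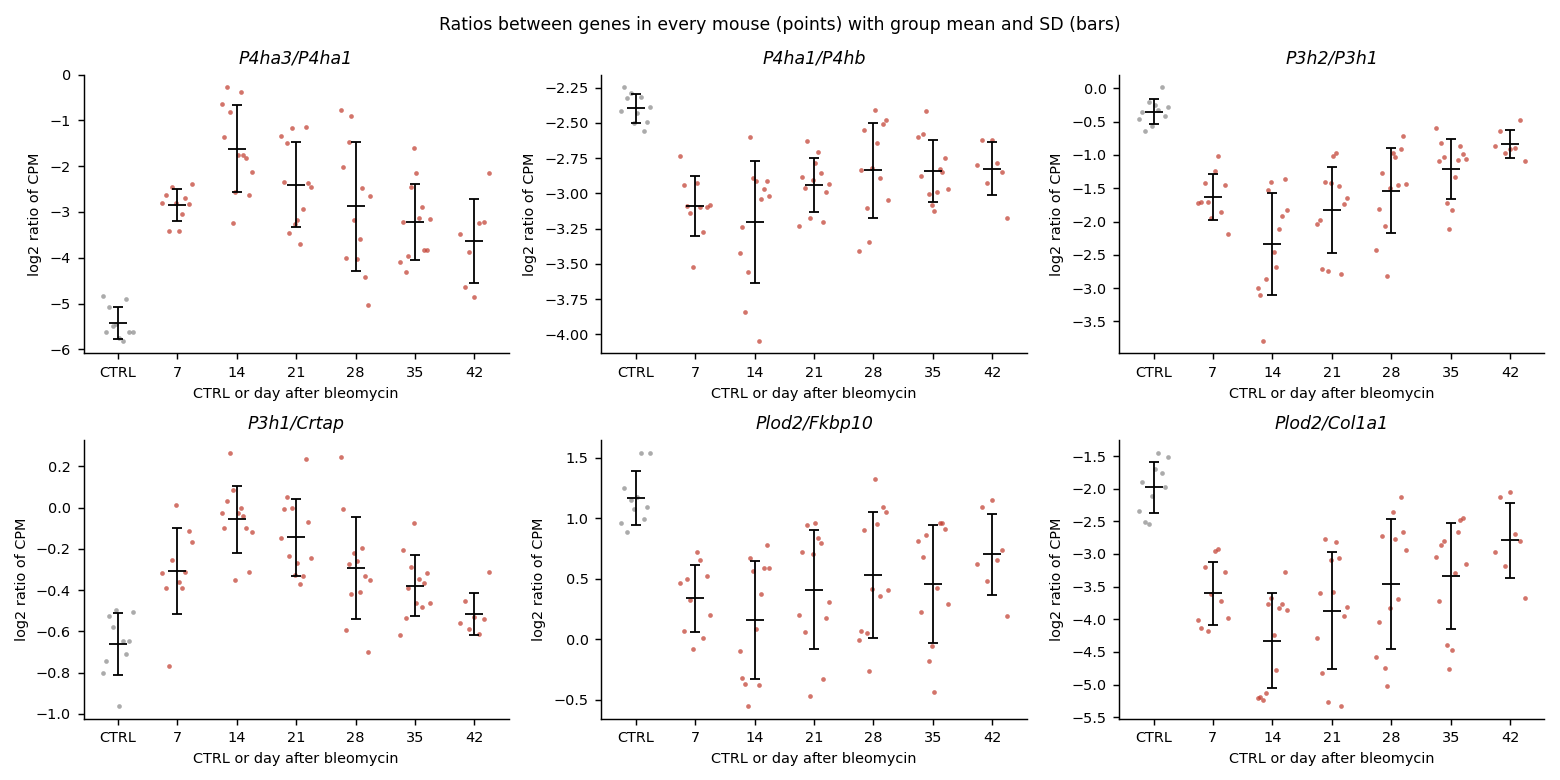
Log2 ratios of CPM between 2 genes in every mouse (CTRL grey, days after bleomycin red), with group mean and SD. The ratio of *P4ha3* to *P4ha1* and of *P3h1* to *Crtap* lies above the CTRL range in all 12 day 14 mice, and the other 4 ratios lie below it.

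At the other time points the counts were lower. Day 7 had 5 upregulated and 2 downregulated hydroxylase genes, where 24.8% of all tested genes were up and 21% down. Day 21 had 7 up and 1 down (28.3 and 25.8% of all tested genes), day 28 had 5 up and 1 down (24.1 and 19.2%), day 35 had 3 up and 2 down (16.9 and 13.1%), and day 42 had 1 up and 0 down (13.7 and 11%). The count of upregulated hydroxylase genes on day 42 was thus close to the share among all genes, at 1 of 10. Between days 7 and 14, 6 genes rose (*P4ha3*, *Plod1*, *Plod2*, *Plod3*, *P3h1* and *P3h3*), where 9.48% of all genes tested did. Of the genes called in this comparison, 55.7% were higher on day 14, or 42.4% with library size as the only scaling. The largest of these steps was that of *P4ha3*, 1.32 ± 0.33, followed by *P3h1* at 0.65 ± 0.13.

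After day 14, steps from 1 week to the next were small compared with the scatter between mice. No hydroxylase gene was called between days 14 and 21 (1.03% of all genes), between days 21 and 28 (0.727%) or between days 35 and 42 (0%) by edgeR's quasi-likelihood test. At an unadjusted p under 0.05 the counts were 1, 3 and 1, and DESeq2 called 0, 0 and 0. Between days 28 and 35, 1.27% of all genes were called, among them *Plod2*, which fell by 0.37 ± 0.09 on the log2 scale (adjusted p = 0.0285), a call that did not hold in a fit of only these 2 groups or in 6 of the 75 refits without 1 mouse. Over the longer interval from day 14 to day 42, 7 hydroxylase genes fell and *P3h2* rose, whereas 18.8% of all tested genes were lower and 15.2% higher on day 42. *P4ha3* fell by 1.89 ± 0.40 and *P3h1* by 0.99 ± 0.15, and *P3h2* rose by 0.51 ± 0.13. *P4ha1* and *P4ha2* were not called in this comparison.

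The order of the 7 group means of log2 CPM put day 14 highest for 7 of the genes (*P4ha2*, *P4ha3*, *Plod1*, *Plod2*, *P3h1*, *P3h3* and *P3h4*) and day 21 highest for *Plod3*, and CTRL highest for *P4ha1* and *P3h2*. For *P3h3*, days 14 and 21 had the same mean of 61.7 CPM. Most neighbours in these orders did not differ by the test. The exceptions were day 42 over CTRL in *P4ha3* (adjusted p = 0.00155) and day 14 over day 7 in *Plod3* (adjusted p = 0.0367), the latter lost in 8 of the 75 refits without 1 mouse.

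The genes that surround hydroxylation in the collagen pathway were given by lists. Of 20 partners and collagen chaperones of the endoplasmic reticulum, 17 were upregulated and 1 downregulated on day 14, with a median log2FC of 0.51. *Fkbp10* rose most and *Colgalt2*, a collagen galactosyltransferase, fell by 1.46. Its paralogue *Colgalt1* rose by 0.76 ± 0.08, and *Serpinh1*, the collagen chaperone HSP47, rose by 1.06 ± 0.12. Of 14 genes of procollagen processing and cross-linking, not all of them for enzymes, 11 were up and 1 down (median 1.15). They ranged from *Lox*, the lysyl oxidase that acts on the hydroxylated lysines, at 3.06 ± 0.34, to *Pcolce2*, an enhancer of procollagen C-proteinase, at -1.65 ± 0.26. Of the 18 tested genes among 19 collagen chains, 17 were up and none was down (median 1.74), and *Col11a1* was highest at 5.89 ± 1.15, from a mean of 0.127 CPM in CTRL, and *Col14a1* lowest at 0.03 ± 0.12. The median over all genes tested was 0.01.

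*Col1a1*, the major chain of fibrillar collagen, went from 331 ± 73 CPM in CTRL to 2472 ± 1163 CPM on day 14 (log2FC 2.90 ± 0.33). The log2FC was larger than that of every hydroxylase gene but *P4ha3*, and the log2 ratios of *P4ha1*, *Plod1* and *Plod2* to *Col1a1* fell by 3.09, 2.02 and 2.35 on day 14, with all 12 mice below the CTRL range in each.

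**Figure D5:**
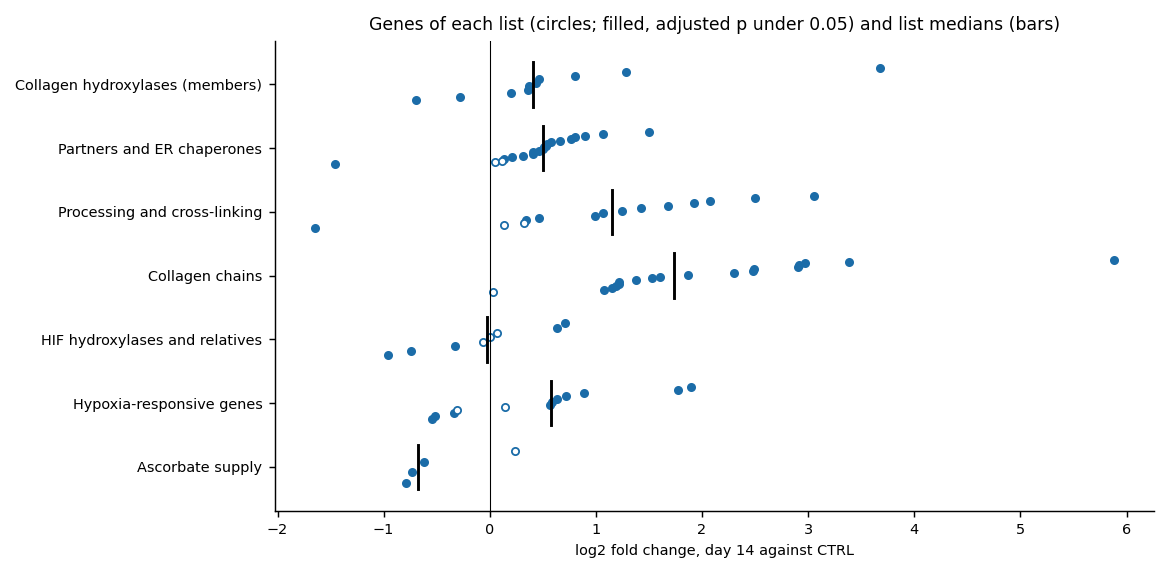
Log2 fold change on day 14 against CTRL for the tested genes of the hydroxylase family and of 6 lists of related genes, 1 circle per gene, filled where the adjusted p was under 0.05. Vertical bars mark list medians, from 1.74 for collagen chains and 0.41 for the hydroxylases to -0.68 for ascorbate supply.

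The hydroxylases of hypoxia-inducible factors share the oxygen and 2-oxoglutarate chemistry. Of 8 genes for these factors, their hydroxylases and relatives, 2 were up and 3 down on day 14 (median -0.03). They ranged from *Hif1a*, a factor and not a hydroxylase, at 0.71 ± 0.12 to *P4htm*, a transmembrane prolyl 4-hydroxylase, at -0.96 ± 0.15. Of 12 tested hypoxia-responsive genes, 7 were up and 3 down (median 0.57), with *Ankrd37* highest at 1.90 ± 0.44 and *Vegfa*, the vascular growth factor, lowest at -0.54 ± 0.12. Of 4 tested genes of ascorbate supply none was up and 3 were down (median -0.68). *Slc23a2*, an ascorbate transporter, was lowest at -0.79 ± 0.11, and *Gsto1*, with dehydroascorbate reductase activity, was highest at 0.24 ± 0.12 without passing the test.

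Across mice, 3 hydroxylase genes varied closely with *Col1a1* after the group means had been removed. Over the 75 mice, Pearson's r with *Col1a1* was 0.87 for *P4ha3* (Spearman's rho 0.78), 0.87 for *P3h1* (rho 0.76) and 0.85 for *Plod1* (rho 0.67), each with a permutation p of 1e-05, the smallest that 100000 resamples within groups can give, and an adjusted p of 1.67e-05 over the 10 genes. Without the 2 mice farthest from the median of *Col1a1*, r was 0.86, 0.85 and 0.83. *P3h2* went the other way, with r = -0.69 and rho = -0.66 (adjusted p = 1.67e-05), and r = -0.67 without those 2 mice. Within days 7 to 42, r ranged from 0.84 to 0.96 for *P4ha3*, from 0.47 to 0.95 for *P3h1*, from 0.75 to 0.95 for *Plod1* and from -0.89 to -0.24 for *P3h2*. Within the 10 CTRL mice these 4 correlations were 0.45, 0.49, -0.22 and -0.21.

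The remaining genes followed *Col1a1* less closely. *Plod3* had r = 0.62 (rho 0.59) and *P3h3* r = 0.68 (rho 0.57), both with an adjusted p of 1.67e-05 by permutation and r = 0.63 and 0.62 without the 2 mice. *P4ha1* had r = -0.40 (rho -0.27), with adjusted permutation p-values of 0.00181 and 0.0472, and r was -0.39 without the 2 mice but positive within CTRL and day 7. *P3h4* had r = 0.30 (adjusted permutation p = 0.0304) but rho = 0.16 (adjusted p = 0.236), and r was 0.17 without the 2 mice, so the value depends on them. For *P4ha2* and *Plod2*, r was 0.06 and -0.01 and rho 0.12 and -0.07, with adjusted permutation p-values from 0.395 to 0.917. Within single groups the direction varied. For *P4ha2*, r ranged from -0.58 on day 7 to 0.65 in CTRL, and for *Plod2* from -0.90 in the 7 mice of day 42 to 0.33 on day 21.

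The genes most like each hydroxylase gene in their deviations from the group means over the 75 mice, which share the libraries and their scaling, are given as a description. *P4ha3* was most like *Col5a2* (r = 0.95) and *Fstl1* (0.93), *P3h1* most like *Fkbp10* (0.94) and *Col5a2* (0.92), and *Plod1* most like *C1qtnf6* (0.89) and *Col5a1* (0.87). *Plod3* was most like *Bak1* (0.85) and *Pigs* (0.80), and *P3h3* most like *Rcn3* (0.80) and *Col16a1* (0.79). *P3h2* stood nearest to *Clic5* (0.86), which is among the AT1 cell markers used here, and to *Sema3e* (0.82). *P4ha2* stood nearest to *Tinagl1* (0.79) and *Krt7* (0.71), *P4ha1* to *Rtp3* (0.79) and *Mettl16* (0.73) and *P3h4* to *Rack1* (0.73) and *Eif3i* (0.72). The closest genes to *Plod2*, *Acer2* and *Flt1*, reached only r = 0.58. Among the hydroxylase genes themselves, *P4ha3* and *P3h1* were most alike (0.86), and *P3h1* and *P3h2* were most opposed (-0.59).

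Cell type markers moved with the same contrast. On day 14, 8 of 10 markers of myofibroblasts and smooth muscle were upregulated and 2 downregulated, and all 8 markers of monocyte-derived macrophages and 6 of 7 of transitional epithelium were upregulated. Of AT2 cell markers 6 of 8 were downregulated, as were all 6 of ciliated and secretory airway cells, all 5 of red blood cells and the 3 tested of thymus. AT1 cell markers were 1 up and 4 down of 8, endothelial markers 1 up and 8 down of 9 and fibroblast markers 4 up and 5 down of 10. Of alveolar macrophage markers 3 of 8 were up and 3 down, of lymphocyte and plasma cell markers 1 of 6 up and 2 down, of mesothelial markers 1 of 5 up, and of cardiac and skeletal muscle markers 1 of 6 up. The summed level of the myofibroblast and smooth muscle markers was 1397 to 1688 CPM in CTRL and 2645 to 10575 CPM on day 14. Most of that rise came from *Spp1*, with group means of 69.4 and 3413 CPM, while *Myh11* and *Cnn1* fell. *Spp1* is counted among the 8 upregulated markers but is not particular to these cells, so the sum does not measure them alone. Fibroblast markers summed to 8420 to 9594 CPM in CTRL and 3417 to 5916 CPM on day 14. That fall came mainly from *Gsn* (means 4691 and 1605 CPM) and *Inmt* (1953 and 437 CPM). The 4 upregulated fibroblast markers were *Pdgfra*, *Lum*, *Dpt* and *Mfap4*. Airway cell markers summed to 20974 to 28355 CPM in CTRL and 2448 to 16202 CPM on day 14, and transitional epithelium markers to 465 to 632 and 725 to 1475 CPM. All 3 tested chondrocyte markers were upregulated, but the summed level of the 8 was at most 7.98 CPM on day 14 against at most 2.71 CPM in CTRL, where 3 of them were at 0. The lung markers were present in all groups. The part of these cell types in the values of the hydroxylase genes was not tested.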

How the data were processed

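Per the labels and the methods text, RNA of the inferior lung lobe was sequenced single-end (75 bp) from stranded polyadenylated libraries, and the authors aligned the reads with STAR 2.7.0f to GRCm38 with Ensembl release 96 and deposited whole-number counts per gene, not normalized. The counting program and its strand setting are not given in the sources used here. All 55536 gene IDs were found in GENCODE M21, the same release. Groups came from the labels, and no column lacked a sample.

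The genes and lists were chosen with earlier results of these data known, so no count over them is independent support. From the counts, CPM with TMM factors, edgeR 4.0.16 (filterByExpr, quasi-likelihood F test, 7 group means, Benjamini-Hochberg adjustment) in R 4.3.3 gave 12 comparisons. Log2 CPM for ratios and correlations used a prior count of 2. Ratios were compared by two-sided permutation tests, exact for day 42 and with 100000 resamples for day 14. The scipy version was 1.17.1. The 8 alternative settings were DESeq2 1.42.0, upper quartile factors, scaling by library size, fits restricted to the 2 groups of a comparison, a block for the replicate number, an absolute log2FC of at least 0.5, and 2 other filters (none, or 10 counts as the minimum in each mouse). Refits without each mouse were added after the data had been seen. Each refit repeated the filter, the scaling and the estimate of the spread over all groups. Leaving out a mouse outside a comparison could therefore also change its calls. The fit was tested on simulated counts.

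All 10 genes were named. Of each other pathway list, the genes with the highest and lowest log2FC on day 14 were named, besides *P4hb*, *Crtap*, *Ppib*, *Fkbp10*, *Colgalt1*, *Serpinh1* and *Col1a1*, and for each hydroxylase gene the 2 genes of highest correlation with a symbol and a mean log2 CPM above 1. Clone-based symbols were not counted. Depth was 9240291 to 14665247 counts per library, and of 375 pairs of mice within groups none differed as little as sampling noise (lowest chi-square per degree of freedom 3.88). No batch is named in the labels.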

Additional observations from a re-analysis of the deposited data

Results flagged for a closer look

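Among 30 gene and group combinations with 7 or 10 mice, 5 had a mouse far from the others by a gap criterion that chance meets in about 1 of 20 groups. Day 7 replicate 5 accounted for 3 of them. It had the lowest *P4ha1* of its group at 70.6 CPM (next 86.6), the highest *P4ha2* at 107.6 CPM (next 68.4) and the lowest *Plod2* at 56.1 CPM (next 77.5). CTRL replicate 10 had the highest *Plod2* of the controls at 103.4 CPM (next 89.0), and CTRL replicate 2 the highest *Plod3* at 105.7 CPM (next 89.5). Leaving out either CTRL mouse changed no call of these 2 genes on days 7 to 42 against CTRL.

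The change against CTRL differed between days 14 and 42 in 8 genes by the contrast of these days in the fit over all 75 mice (edgeR's quasi-likelihood test). The difference on the log2 scale was -1.89 for *P4ha3*, -0.53 for *Plod1*, -0.54 for *Plod2*, -0.31 for *Plod3*, -0.99 for *P3h1*, 0.51 for *P3h2*, -0.29 for *P3h3* and -0.36 for *P3h4*, with adjusted p-values from 6.95e-07 to 0.00738. *P3h4* and *Plod2* lay below CTRL on day 42 in these values, although neither passed the test against CTRL on that day.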

How the results depend on the processing

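Of 480 values of single hydroxylase genes on days 7 to 42 against CTRL under the 8 alternative settings, 436 kept their direction and their side of the threshold, 36 lost a call, 8 gained one and none changed sign. Requiring an absolute log2FC of at least 0.5 moved the number of the 10 genes called to 3 on day 7, 4 on day 14, 3 on days 21 and 28 each and 1 on day 35, to 3 between days 7 and 14, 0 between days 28 and 35 and 5 between days 14 and 42. Of all 16221 genes, 18.7, 31, 25.2, 20 and 13.5% were then called on days 7 to 35, and 8.13, 1.05 and 15.5% in these 3 comparisons. A fit of only the 2 groups compared called 5 hydroxylase genes on day 42 (39.8% of all genes) and 0 between days 28 and 35, and it called 0 genes of all in the latter, against 206 in the fit over 7 groups. The cause was not tested. Without 1 mouse, the number called ranged from 0 to 1 between days 21 and 28 and from 0 to 2 between days 28 and 35.

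The deviations of mice of the same replicate number had a mean correlation of 0.0058 over 204 pairs, 63 of them over 0.1. Over 2196 pairs of different numbers the mean was 0.0003, with 556 over 0.1. On average, mice of the same number were thus hardly more alike than others, which does not exclude a weak pairing. With the replicate block, 9 rather than 10 genes were called on day 14, as *P3h4* had an adjusted p of 0.0505. Under the block *P4ha1* on day 35 had 0.0515 and *P3h4* on day 35 0.0457, and no other call against CTRL changed. All 30 ratio tests past the threshold held their call with prior counts of 0.5 and 5. *P4ha3* in CTRL rests on 18 to 41 counts per library, and its SEs were the largest of the 10 genes, also in comparisons without CTRL.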
